A study of Homo sapiens with 8 samples.

Results

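The genes that encode collagen, laminin and integrin chains, with 7 partner genes of the extracellular matrix (fibronectin FN1, the nidogens NID1 and NID2, perlecan HSPG2, agrin AGRN, vitronectin VTN and tenascin C TNC), were followed through posterior neural differentiation of human pluripotent stem cells. They were picked out by a rule on gene names. The table held 89 of them among 35940 gene symbols: 44 collagen, 12 laminin and 26 integrin genes and the 7 partners. Of the 89, 61 reached 1 TPM in at least 2 of the 8 libraries and were tested, and 28 did not.

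The cells were wild-type ESI017, 1 human embryonic stem cell line. They were grown on Matrigel, a basement membrane extract, and moved to the neural medium N2B27 with the inhibitors named SB (10 μM) and LDN (100 nM) in the labels, and received recombinant WNT3A at 300 ng/mL from 34 h on. RNA was sampled at 34, 42, 50 and 72 h, with 2 libraries at each time, replicates 1 and 2, which the labels also call batches 1 and 2. All groups share the medium and both inhibitors. The 34 h libraries precede WNT3A, and an arm without WNT3A was not analysed here, so elapsed time and WNT3A cannot be told apart in any comparison with 34 h.

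Epithelial cells rest on a basement membrane. Laminins are trimers of an alpha, a beta and a gamma chain that form a sheet at the cell surface, collagen IV forms a second network, and nidogens and the proteoglycans perlecan and agrin link or fill them. Integrins are pairs of an alpha and a beta chain that span the cell membrane, bind these proteins outside and connect to actin inside. Pluripotent stem cells and early neuroepithelium are both epithelia, and the laminin receptor made of integrin alpha 6 and beta 1 is a known attachment receptor of stem cells.

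Levels are TPM, transcript abundance corrected for transcript length and scaled to the library, so levels of different genes can be set side by side. Changes are differences in log2(TPM + 1), which understate the change of genes at low TPM, and a gene was called changed at a limma adjusted p under 0.05 over all 14908 genes tested. In bulk RNA, fewer cells of a type and less RNA per cell cannot be told apart. Replicates of a time point had Spearman correlations of 0.980 to 0.984 over the tested genes. The summed level of 6 pluripotency markers was 2574 to 2665 TPM at 34 h against 619.5 to 639.5 TPM at 72 h, and that of 6 neural progenitor markers was 367 to 384 TPM and 620.4 to 667 TPM, with 1 of the 6, HES5, under 1 TPM in all libraries. Of other cell types, 6 surface ectoderm markers summed to 277 to 289 TPM at 34 h against 75.7 to 87.5 TPM at 72 h, nearly all of it from the keratin gene KRT18 (272 and 267 TPM, then 69.5 and 78.5 TPM), while TP63, KRT14 and GATA3 stayed under 1 TPM. The 7 endothelium and blood markers summed to 23.3 to 38.7 TPM, 7 neural crest and mesenchyme markers to 6.02 to 10.6 TPM over all libraries, and 7 mesoderm and endoderm markers to 3.65 to 22.4 TPM, highest at 42 h, with SOX17 listed at 0 in all libraries. In that last list TBXT had 0.831 and 1.16 TPM (34 h), 11.4 and 7.92 TPM (42 h), 9.62 and 6.83 TPM (50 h), then 1.62 and 1.87 TPM (72 h), MIXL1 and EOMES were also highest at 42 h or 50 h, and FOXA2 fell from 11.9 and 13.4 TPM at 34 h to 0.575 and 0.866 TPM at 72 h (-2.99 ± 0.18, limma adjusted p 1.90e-05). Within the neural crest and mesenchyme list PRRX1 had 0.0308 and 0.0193 TPM (34 h), then 3.27 and 2.58 TPM (72 h). Its rise was 1.93 ± 0.24 (limma adjusted p 0.000943). FOXD3 had 4.65 and 4.48 TPM (34 h) and was listed at 0 in both 72 h libraries. FOXD3 reached 1 TPM in the 34 h libraries only, so the filter favoured a fall and its values are given as a description. The part of all these markers in the changes below was not tested.

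Of the 61 tested genes, 1 was raised and 1 lowered at 42 h against 34 h (3.28%), where 2.58% of all tested genes were called, 1.78% raised and 0.792% lowered, so the shares were near each other. An unadjusted p under 0.05 was found for 12 of the 61 (19.7%) and for 13.9% of all tested genes. At 50 h against 34 h 7 were raised and 1 lowered (13.1%), beside 6.26% of all tested genes called, 3.52% raised and 2.74% lowered. At 72 h against 34 h 17 were raised and 9 lowered. That is 42.6% of the 61 tested, where 24.0% of all tested genes were called (12.7% raised and 11.3% lowered). Of the 9 lowered, COL21A1 reached 1 TPM in the 34 h libraries only, so that the filter itself favoured a fall. LAMB3 reached 1 TPM in 34 h replicate 1 and the 42 h libraries only, with the same limit. Between 42 h and 50 h limma called 0 of them, with 9 (14.8%) at an unadjusted p under 0.05 beside 9.35% of all tested genes. That count was 2 (3.28%, beside 6.53% of all genes) without 42 h replicate 2, 4 (6.67%, beside 8.52%) without 50 h replicate 1 and 5 (8.20%, beside 9.44%) without the variance trend, so no excess over all genes is read from it. In this step 0.0939% of all tested genes were called, 0.0604% raised and 0.0335% lowered. Scaling moved the balance of calls over all genes: at 72 h against 34 h 53.1% of called genes were raised, and 43.7% after TMM and 47.7% after quantile scaling, while for these genes the 17 raised and 9 lowered became 14 and 10, and 15 and 8. At 50 h against 34 h the raised share of all calls was 56.3%, and 47.6% and 49.6% with these scalings. Between 42 h and 50 h it was 64.3%, and 47.4%, 45.0% and, without mitochondrial genes, 52.9%. Between 50 h and 72 h 4 were raised and 5 lowered, beside 7.33% of all tested genes called, 2.92% raised and 4.41% lowered. The median change at 72 h against 34 h was 0.11 over the 61 genes and 0.06 over all tested genes.

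The counts at 42 h, 50 h and between 50 h and 72 h rest on few libraries. Leaving out 34 h replicate 2 or 42 h replicate 1 left 0 genes called at 42 h, with 12 and 11 at an unadjusted p under 0.05 (20% and 18%, beside 10% and 12.4% of all genes), and leaving out 42 h replicate 2 left 1; the share of all genes called was then 1.08%, 1.18% and 1.13%. At 50 h the count of 8 fell to 2 without 50 h replicate 1, to 3 without either 34 h library and to 4 when any 1 library of 42 h or 72 h was left out. The share of all genes called fell as well, from 6.26% to 3.25% without 50 h replicate 1, to 3.12% and 2.79% without 34 h replicates 1 and 2, and to between 5.09% and 5.47% without a 42 h or 72 h library. At 72 h against 34 h the count of 26 was 16 without 34 h replicate 1 and 17 without either 72 h library, where 14.7%, 12.5% and 13.3% of all genes were called. Between 50 h and 72 h the count of 9 was 3 without 50 h replicate 1 or 72 h replicate 1 and 5 without 50 h replicate 2, with 4.56%, 2.17% and 3.36% of all genes called. Replicate 1 was above replicate 2 for 60.7% of the 61 genes at 34 h, 65.6% at 42 h, 70.5% at 50 h and 42.6% at 72 h, beside 55.8%, 51.6%, 51.1% and 50.3% of all tested genes. The summed level of the 89 genes was 1879 TPM in 50 h replicate 1 and 1572 to 1763 TPM in the other libraries. The part of these differences in the calls was not tested.

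**Figure D1:**
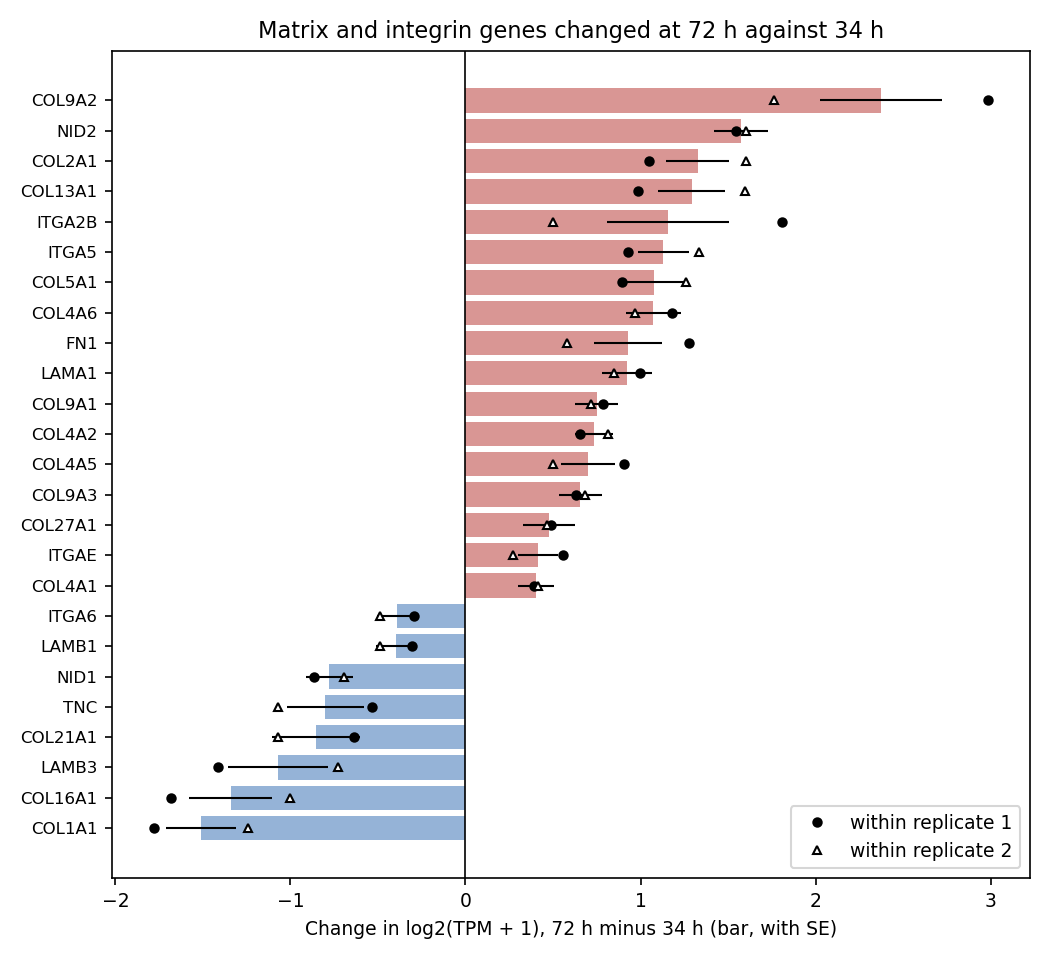
Horizontal bars show the change in log2(TPM + 1) from 34 h to 72 h with its standard error for 25 of the 26 genes called changed by limma, red for raised and blue for lowered; circles and triangles are the differences within replicates 1 and 2. Both replicates lie on the same side of 0 for every gene shown, from 2.37 for COL9A2 to -1.51 for COL1A1.

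Among the laminins, the alpha 1 chain rose and the beta 1 chain fell by 72 h. Of the 12 laminin genes 10 were tested, and at 72 h against 34 h 1 was raised and 3 were lowered, with a median change of -0.40. Of all tested genes 12.7% were raised and 11.3% lowered, with a median of 0.06. Transcripts for the alpha 5, beta 1, beta 2 and gamma 1 chains were the main ones at every time. LAMA5 had 181 and 144 TPM (34 h), 144 and 142 TPM (42 h), 178 and 124 TPM (50 h), then 121 and 126 TPM (72 h), the highest level of the laminins in every library. It stood -0.38 ± 0.17 from its 34 h level at the last time (limma adjusted p 0.144).

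LAMA1 (alpha 1 chain; chromosome 18, 6941744 to 7117814, minus strand, GRCh38) had 19.05 and 17.1 TPM (34 h), 19.1 and 20.9 TPM (42 h), 22.3 and 20.1 TPM (50 h), then 39.02 and 31.6 TPM (72 h). The 2 libraries of 72 h lie above all 6 earlier ones. The rise from 34 h was 0.92 ± 0.14 (SE; limma adjusted p 0.002803; 0.9971 and 0.85 within replicates 1 and 2), and that from 50 h was 0.70 ± 0.14 (SE; limma adjusted p 0.0234; 0.78 and 0.63 within replicates 1 and 2). The call against 50 h was lost without either 50 h library or without 72 h replicate 1 (adjusted p 0.0568 to 0.163) and with the compared time points alone (0.0585). LAMA1 made up 9.31% and 10.5% of the summed laminin alpha TPM at 34 h against 24.2% and 19.9% at 72 h, while LAMA5 went from 88.7% and 88.3% to 75.2% and 79.5%.

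LAMB1 had 77.5 and 83.7 TPM (34 h), 78.5 and 69.9 TPM (42 h), 83.7 and 72.4 TPM (50 h), then 62.5 and 59.4 TPM (72 h), and LAMB2 had 44.9 and 59.6 TPM (34 h), 67.2 and 63.6 TPM (42 h), 44.5 and 59.3 TPM (50 h), then 78.1 and 69.4 TPM (72 h). LAMB1, the beta 1 chain, stood above LAMB2, the beta 2 chain, in all libraries up to 50 h and below it in both 72 h libraries. LAMB1 fell by 0.40 on the log2 scale by the last time (SE 0.11; limma adjusted p 0.0352), a call that ended when any 1 library of 34 h or 72 h was left out (0.0784 to 0.167). The change of LAMB2, 0.50 ± 0.17, had a limma adjusted p of 0.0697, and of 0.0443 and 0.0447 without 50 h replicate 1 or 2. The ratio of LAMB1 to LAMB2 was 1.73 and 1.404 at 34 h against 0.7999 and 0.855 at 72 h.

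The beta 3 chain, part of an epidermal type of laminin with the alpha 3 chain, was at a low level and fell. Of the 6 surface ectoderm markers 2 were tested, and KRT18 was lowered (-1.85 ± 0.10, limma adjusted p 1.22e-05). The other tested marker, TFAP2C, was not called, and TP63, KRT14 and GATA3 stayed under 1 TPM in all libraries. The part of these markers in the fall of the beta 3 chain was not tested. LAMB3 went from 1.78 and 0.9504 TPM at 34 h to 0.04499 and 0.179 TPM at 72 h (-1.07 ± 0.28, limma adjusted p 0.0289). It reached 1 TPM in 34 h replicate 1 and the 42 h libraries only. The filter thus favoured a fall, and its values are given as a description. The call was lost without 34 h replicate 1 or either 72 h library. With the compared time points alone LAMB3 did not pass the filter. LAMA3 reached 1 TPM in 1 library and was not tested. The common gamma chain gene LAMC1 had 43.8 and 42.001 TPM (34 h), 47.7 and 47.4 TPM (42 h), 67.9 and 47.2 TPM (50 h), then 54.6 and 51.8 TPM (72 h) (change at 72 h 0.30 ± 0.16, limma adjusted p 0.204).

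The nidogens, which bridge laminin and collagen IV, moved in opposite directions. NID1 (chromosome 1, 235975830 to 236065162, minus strand, GRCh38) had 26.2 and 23.2 TPM (34 h), 25.7 and 24.2 TPM (42 h), 24.02 and 19.995 TPM (50 h), then 13.9 and 14.01 TPM (72 h). NID2 (chromosome 14, 52004803 to 52069228, minus strand, GRCh38) had 9.597 and 7.89 TPM (34 h), 8.83 and 10.2 TPM (42 h), 11.2 and 10.98 TPM (50 h), then 29.97 and 25.98 TPM (72 h). At 72 h both NID1 values lie below, and both NID2 values above, those of all earlier libraries. From 34 h to 72 h NID1 changed by -0.78 ± 0.13 (SE; limma adjusted p 0.00443; -0.86 and -0.69 within replicates 1 and 2) and NID2 by 1.57 ± 0.15 (SE; limma adjusted p 0.000267; 1.55 and 1.60 within replicates 1 and 2). From 50 h to 72 h the changes were -0.61 ± 0.13 for NID1 and 1.26 ± 0.15 for NID2 (limma adjusted p 0.0303 and 0.00257). The NID1 call against 50 h was lost without 50 h replicate 1, either 42 h or either 72 h library (0.0514 to 0.151) and with the compared time points alone (0.08100). The NID2 calls held in all alternatives. The ratio of NID2 to NID1 was 0.367 and 0.339 at 34 h, 0.466 and 0.549 at 50 h, then 2.15 and 1.85 at 72 h.

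The stretches upstream of the nidogen genes are shown because these close relatives moved apart. They are the part of each RefSeq promoter window (GRCh38.p14) that lies outside GENCODE exons, on the minus strand, 5′ to 3′, with GGGCGG and CCAAT, on either strand, in capitals. The NID1 stretch is at chr1:236065163-236065340 and the NID2 stretch at chr14:52069229-52069309.
NID1: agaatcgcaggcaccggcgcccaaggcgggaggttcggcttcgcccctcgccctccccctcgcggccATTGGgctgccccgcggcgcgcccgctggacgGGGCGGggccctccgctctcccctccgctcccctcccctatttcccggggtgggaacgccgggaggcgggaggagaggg
NID2: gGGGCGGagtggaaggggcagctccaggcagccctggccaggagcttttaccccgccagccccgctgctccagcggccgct
Each stretch holds 1 GGGCGG, the letters of the GC box, and the NID1 stretch 1 CCAAT on the opposite strand. In the full windows of 250 bases before the start NID1 has 1 and NID2 has 3 matches of GGGCGG, and 1 and 2 of CCAAT.

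The proteoglycans of the basement membrane were at high levels and none was called in any comparison. AGRN had 124 and 92.8 TPM (34 h), 129 and 105 TPM (42 h), 166 and 107 TPM (50 h), then 138 and 144 TPM (72 h), with a change at 72 h of 0.39 ± 0.21 (limma adjusted p 0.225). HSPG2 had 28.4 to 38.9 TPM over the 8 libraries. COL18A1, a collagen that carries heparan sulfate, had 105 to 164 TPM, and its relative COL15A1 stayed under 1 TPM. AGRN and COL18A1 were, with LAMA5 and ITGA6, among the 5 highest of the 89 genes in every library.

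**Figure D2:**
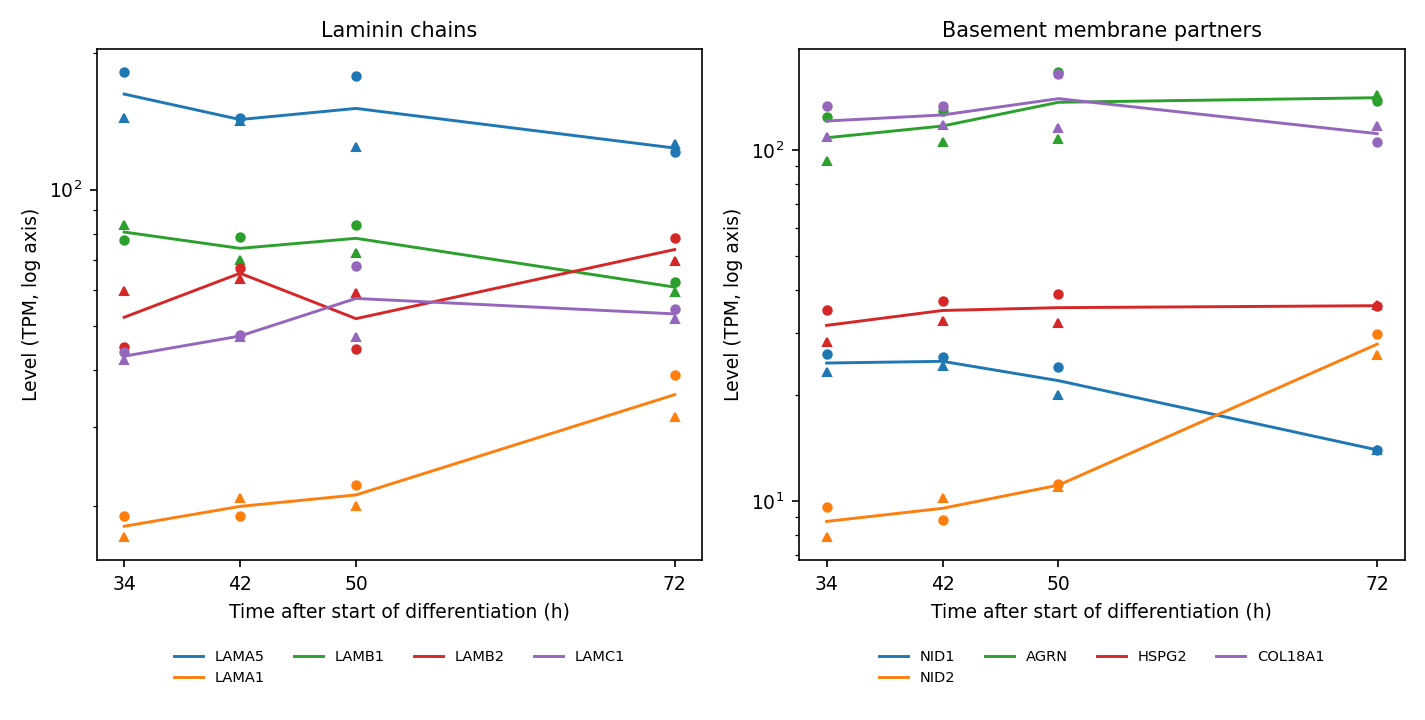
Levels in TPM (log axis) against hours of differentiation for 5 laminin chains (left) and 5 basement membrane partners (right); circles are replicate 1, triangles replicate 2 and lines join the means of 2 libraries. The mean of LAMA1 reached 35.3 TPM at 72 h, and NID1 and NID2 crossed between 50 h and 72 h.

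Collagen IV, the network collagen of basement membranes, has 6 chains encoded by 3 pairs of genes, each pair head to head on its chromosome. All 4 tested chain genes were raised at 72 h against 34 h, beside 12.7% of all tested genes. Their median change was 0.72, and the summed level of the 6 was 114 and 121 TPM at 34 h against 189.8 and 192 TPM at 72 h. COL4A3 and COL4A4, a pair known from the kidney, had at most 0.0718 and 0.211 TPM in any library.

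The pair COL4A1 and COL4A2 encodes the alpha 1 and alpha 2 chains found in nearly all basement membranes. COL4A2 had 41.6 and 42.6 TPM (34 h), 55.8 and 53.1 TPM (42 h), 60.9 and 54.8 TPM (50 h), then 66.04 and 75.7 TPM (72 h), and COL4A1 had 32.8 and 33.3 TPM (34 h), 42.99 and 40.5 TPM (42 h), 47.9 and 43.7 TPM (50 h), then 43.3 and 44.8 TPM (72 h). At 72 h both values of COL4A2 lie above all earlier ones, while COL4A1 was lowest in both 34 h libraries, next lowest in both 42 h libraries, and overlapped between 50 h and 72 h. COL4A2 rose by 0.73 ± 0.11 (SE; limma adjusted p 0.00233; 0.65 and 0.82 within replicates 1 and 2) at 72 h. COL4A1 rose by 0.46 ± 0.10 at 50 h and 0.40 ± 0.10 at 72 h (limma adjusted p 0.03798 and 0.0244). The 72 h call of COL4A1 ended when any 1 library of 34 h or 72 h was left out (0.0903 to 0.122), and its 50 h call without any 1 library (0.0625 to 0.1600), after TMM (0.0567) or quantile scaling (0.0649) and with the compared time points alone (0.121). The ratio of COL4A2 to COL4A1 was between 1.25 and 1.31 in the 6 libraries up to 50 h and 1.52 and 1.69 at 72 h. The annotated first ends of these 2 genes overlap and strand use in the counting is not given in the sources used here, so reads near their starts may not be told apart.

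The pair COL4A5 and COL4A6 lies on the X chromosome (108439844 to 108697545, plus strand, and 108155607 to 108439497, minus strand). COL4A6 had 12.97 and 12.02 TPM (34 h), 21.7 and 19.01 TPM (42 h), 26.005 and 21.6 TPM (50 h), then 30.6 and 24.5 TPM (72 h), and COL4A5 had 26.1 and 33.1 TPM (34 h), 31.1 and 25.6 TPM (42 h), 33.8 and 39.3 TPM (50 h), then 49.7 and 47.2 TPM (72 h). COL4A6 was lower in both 34 h libraries than in any later one, and COL4A5 was higher in both 72 h libraries than in any earlier one. COL4A6 rose by 0.87 ± 0.16 (SE; limma adjusted p 0.0151; 0.95 and 0.79 within replicates 1 and 2) at 50 h and by 1.07 ± 0.16 (SE; limma adjusted p 0.00215; 1.18 and 0.97 within replicates 1 and 2) at 72 h. The 50 h call of COL4A6 was lost without either 34 h library or 50 h replicate 1 (0.0639 to 0.102). At 42 h its change of 0.66 passed with the replicate number as a block (limma adjusted p 0.0380) and not without it (0.0828). COL4A5 rose at 72 h by 0.70 ± 0.15 (SE; limma adjusted p 0.0137; 0.90 and 0.50 within replicates 1 and 2), a call lost without 34 h replicate 1 or either 72 h library (0.0567 to 0.0816).

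The sequence between the starts of each raised pair is shown because the 2 genes of a pair share it and both rose. For COL4A1 and COL4A2, whose RefSeq starts are 127 bases apart, it is the 30 bases at chr13:110307167-110307196 around the CCAAT box, on the plus strand. For COL4A5 it is the 250 bases before the RefSeq start, chrX:108439588-108439837, plus strand, which lie between COL4A5 and the nearer of the 2 COL4A6 starts in the table, 380 bases away. Capitals mark CCAAT on either strand.
COL4A1-COL4A2: gggccgagctccCCAATttgttggcgctgc
COL4A5: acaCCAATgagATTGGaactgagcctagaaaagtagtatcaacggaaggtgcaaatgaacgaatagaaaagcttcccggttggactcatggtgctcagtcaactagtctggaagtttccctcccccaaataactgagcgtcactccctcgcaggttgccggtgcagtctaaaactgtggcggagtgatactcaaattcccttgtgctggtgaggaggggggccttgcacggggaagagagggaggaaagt
The COL4A5 stretch holds 2 CCAAT boxes on opposite strands. In the windows of 250 bases COL4A1 and COL4A2 have 1 CCAAT each, which is the same site, and the nearer COL4A6 window has 3, of which 2 are those of COL4A5.

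**Figure D3:**
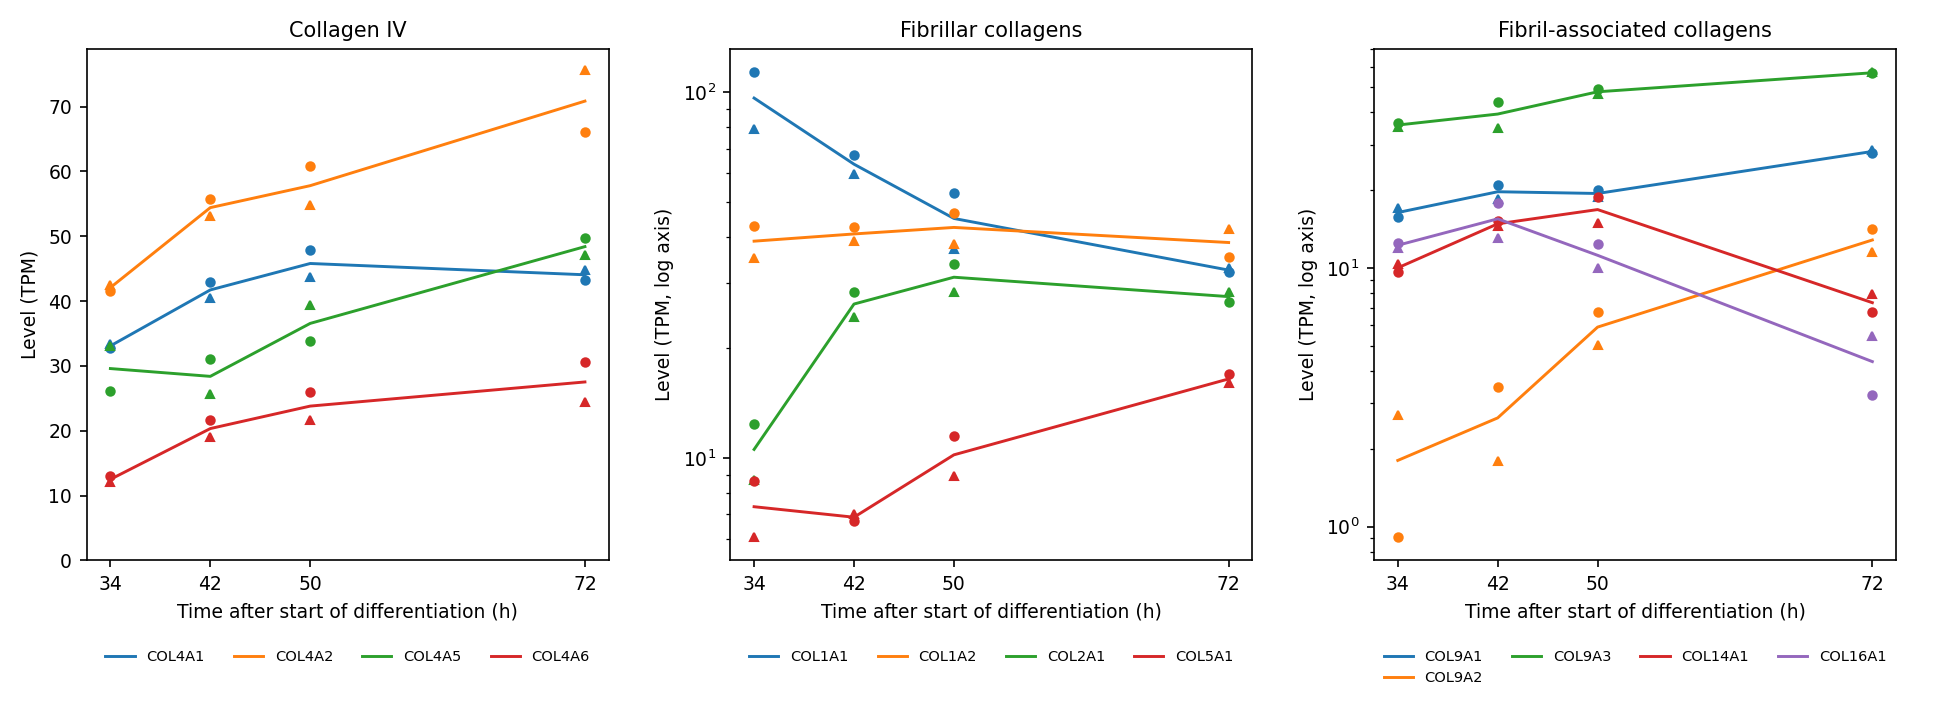
Levels in TPM against hours of differentiation for collagen IV chains (left, linear axis from 0), fibrillar collagens (middle, log axis) and fibril-associated collagens (right, log axis); circles are replicate 1, triangles replicate 2 and lines join the means of 2 libraries. COL1A1 passes below COL1A2 by 72 h, with 32.6 and 38.7 TPM, and COL9A2 climbs from 1.80 to 12.8 TPM.

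Of the fibrillar collagens, which form the banded fibres of connective tissue and cartilage, COL2A1 rose early, COL5A1 rose late and COL1A1 fell. Of 11 genes 9 were tested. At 72 h against 34 h 3 were raised and 1 was lowered, with a median change of 0.08, beside 12.7% raised, 11.3% lowered and a median of 0.06 over all tested genes. COL2A1 (type II collagen of cartilage and notochord, also made by early neuroepithelium; chromosome 12, 47972965 to 48004554, minus strand, GRCh38) had 12.4 and 8.68 TPM (34 h), 28.4 and 24.2 TPM (42 h), 33.9 and 28.4 TPM (50 h), then 26.7 and 28.4 TPM (72 h). Both 34 h values lie below all later ones, and the later times overlap.

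COL2A1 was the 1 raised gene at 42 h, by 1.26 ± 0.18 (SE; limma adjusted p 0.00914; 1.13 and 1.38 within replicates 1 and 2). At 50 h and 72 h it stood 1.49 ± 0.18 and 1.33 ± 0.18 above 34 h (limma adjusted p 0.00232 and 0.00148). The later 2 calls held in all alternatives, and that at 42 h was lost without 34 h replicate 2 or 42 h replicate 1 (0.0537 and 0.07602).

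COL1A1 (chromosome 17, 50183289 to 50201632, minus strand, GRCh38), the alpha 1 chain of type I collagen, had 113 and 79.4 TPM (34 h), 67.2 and 59.6 TPM (42 h), 53.04 and 37.1 TPM (50 h), then 32.2 and 32.97 TPM (72 h). Libraries of different times do not overlap, although the change of -0.57 at 42 h did not pass (limma adjusted p 0.249). The change was -1.08 ± 0.20 at 50 h (limma adjusted p 0.0184) and -1.51 ± 0.20 (SE; limma adjusted p 0.00138; -1.78 and -1.24 within replicates 1 and 2) at 72 h. The 50 h call was lost without 34 h replicate 1 or 50 h replicate 2 (0.106 and 0.0782) and with the compared time points alone (0.0604). Its partner chain COL1A2 had 42.96 and 35.2 TPM (34 h), 42.6 and 39.2 TPM (42 h), 46.7 and 38.5 TPM (50 h), then 35.4 and 42.1 TPM (72 h), with a change at 72 h of -0.01 ± 0.15 (limma adjusted p 0.9703). Type I collagen holds more COL1A1 than COL1A2 chains, and the TPM ratio of COL1A1 to COL1A2 was 2.63 and 2.25 at 34 h, 1.58 and 1.52 at 42 h, 1.14 and 0.964 at 50 h, then 0.9103 and 0.782 at 72 h. The ratio of COL2A1 to COL1A1 was 0.1098 and 0.109 at 34 h against 0.8296 and 0.863 at 72 h. COL3A1, the fibrillar collagen typical of mesenchyme, had at most 0.0192 TPM in any library.

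COL5A1, which starts fibrils, had 8.63 and 6.07 TPM (34 h), 6.73 and 7.03 TPM (42 h), 11.4 and 8.94 TPM (50 h), then 16.9 and 15.96 TPM (72 h) and was higher in both 72 h libraries than in any other. It rose at 72 h by 1.08 ± 0.19 (SE; limma adjusted p 0.00503; 0.89 and 1.26 within replicates 1 and 2). COL27A1 went from 6.896 and 7.77 TPM to 10.1 and 11.1 TPM, 0.48 ± 0.15 (limma adjusted p 0.0497). That call was lost under 16 of 18 alternatives, with adjusted p-values between 0.0403 and 0.212, among them the replicate block (0.0565) and leaving out any 1 library (0.0613 to 0.212).

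All 3 chains of collagen IX, which coats type II fibrils, rose by 72 h, while COL14A1 and COL16A1 of the same class were lowered in at least 1 comparison. Of the 10 genes for fibril-associated collagens 8 were tested. At 72 h against 34 h 3 were raised and 2 lowered, of which COL21A1 is only described below, beside 12.7% raised and 11.3% lowered of all tested genes. Against 50 h 2 were raised and 2 lowered, beside 2.92% and 4.41% of all tested genes. COL9A2 had 0.911 and 2.69 TPM (34 h), 3.47 and 1.798 TPM (42 h), 6.77 and 5.05 TPM (50 h), then 14.1 and 11.5 TPM (72 h), COL9A1 had 15.8 and 16.98 TPM (34 h), 20.96 and 18.5 TPM (42 h), 20.1 and 18.8 TPM (50 h), then 27.9 and 28.5 TPM (72 h) and COL9A3 had 36.3 and 35.1 TPM (34 h), 43.9 and 34.9 TPM (42 h), 49.1 and 46.9 TPM (50 h), then 56.7 and 57.003 TPM (72 h). For each of them both 72 h values exceed all earlier ones. The rises at 72 h were 2.37 ± 0.35 (SE; limma adjusted p 0.00221; 2.99 and 1.76 within replicates 1 and 2) for COL9A2, 0.75 ± 0.12 for COL9A1 and 0.66 ± 0.12 for COL9A3 (limma adjusted p 0.00348 and 0.00691 for the last 2). These 3 calls held in all alternatives. The chains were nearer to equal at 72 h, when COL9A3 stood at 4.01 and 4.95 times COL9A2, than at 34 h, when it stood at 39.9 and 13.02 times. Against 50 h the rise of COL9A1 (0.52 ± 0.12, limma adjusted p 0.04099) was lost with the replicate block (0.0538) and without any 1 library (0.05603 to 0.182).

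COL14A1 had 9.63 and 10.4 TPM (34 h), 15.1 and 14.5 TPM (42 h), 18.8 and 14.9 TPM (50 h), then 6.76 and 7.93 TPM (72 h), above 34 h in the middle of the course and below it at the end. It rose by 0.69 ± 0.16 at 50 h against 34 h (limma adjusted p 0.0423), a call lost under 13 of 18 alternatives, with adjusted p-values between 0.0346 and 0.194, among them the replicate block (0.0582) and leaving out any 1 library but 50 h replicate 2 (0.06103 to 0.194). From 50 h to 72 h it changed by -1.09 ± 0.16 (SE; limma adjusted p 0.00593; -1.35 and -0.83 within replicates 1 and 2), with an adjusted p of 0.0581 without 72 h replicate 1. COL16A1 had 12.53 and 11.9 TPM (34 h), 17.9 and 13.1 TPM (42 h), 12.4 and 9.97 TPM (50 h), then 3.22 and 5.47 TPM (72 h) and was lowest in both 72 h libraries. It changed by -1.34 ± 0.24 (SE; limma adjusted p 0.005103; -1.68 and -1.0005 within replicates 1 and 2) against 34 h, which held in all alternatives. Against 50 h it changed by -1.22 ± 0.24 (limma adjusted p 0.0204), lost without either 50 h library or 72 h replicate 1 (0.0562 to 0.118).

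Among the less expressed members of the class, COL21A1 had 1.41 and 1.78 TPM (34 h), 0.768 and 0.827 TPM (42 h), 0.572 and 0.845 TPM (50 h), then 0.5499 and 0.322 TPM (72 h). It reached 1 TPM in the 34 h libraries only and entered the test through them, so its values are given as a description; the call it received at 72 h also did not hold with the block (limma adjusted p 0.0593). COL22A1 rose from 1.53 and 1.46 TPM at 50 h to 5.86 and 3.51 TPM at 72 h (1.16 ± 0.25, limma adjusted p 0.0312), lost without either 34 h or 50 h library or 72 h replicate 1 (0.0527 to 0.202) and with the compared time points alone (0.0669).

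Of the transmembrane collagens, COL13A1, which sits at cell adhesions, had 9.504 and 6.32 TPM (34 h), 10.8 and 13.5 TPM (42 h), 18.5 and 18.6 TPM (50 h), then 19.8 and 21.2 TPM (72 h), with no overlap between times. It rose by 1.16 ± 0.19 at 50 h (limma adjusted p 0.0105) and by 1.29 ± 0.19 (SE; limma adjusted p 0.002302; 0.98 and 1.60 within replicates 1 and 2) at 72 h. The 50 h call was lost without 34 h replicate 2 or 50 h replicate 1 (0.0556 and 0.0592), and that at 72 h held in all alternatives. COL26A1 had 47.5 to 83.2 TPM, with its highest value in replicate 1 at 50 h, and was not called. Collagen VI, a microfibril collagen built from 3 different chains, had COL6A1 at 26.8 to 38.3 TPM and COL6A2 at 14.3 to 19.98 TPM. The gene of the usual remaining chain, COL6A3, had 2.09 and 0.729 TPM at 34 h, no more than 0.663 TPM later, and was not tested. None of the tested collagen VI genes was called. COL7A1, the anchoring fibril collagen and a gene outside the naming rule, had a limma adjusted p of 0.0639 at 72 h against 34 h, and of 0.0183 with the replicate block.

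Integrin alpha chains held 317 and 299.9 TPM in sum at 34 h against 312 and 306 TPM at 72 h, with alpha 6, a laminin receptor chain, first in level at every time and alpha 5, the fibronectin receptor chain, rising. Of 18 alpha chain genes 10 were tested. At 72 h against 34 h 3 were raised and 1 was lowered, with a median change of -0.21. The shares of all tested genes were 12.7% raised and 11.3% lowered, with a median of 0.06. Of 8 beta chain genes 6 were tested and none was called at 72 h.

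ITGA6 (chromosome 2, 172427354 to 172506282, plus strand, GRCh38) had 149.9 and 143 TPM (34 h), 92.1 and 103 TPM (42 h), 112 and 125 TPM (50 h), then 122 and 102 TPM (72 h). Both 34 h values lie above all later ones, and the lowest values are those of 42 h and of replicate 2 at 72 h. It was the 1 lowered gene at 42 h, with a change of -0.58 ± 0.12 (SE; limma adjusted p 0.0433; -0.70 and -0.46 within replicates 1 and 2), and changed by -0.39 ± 0.12 at 72 h (limma adjusted p 0.0442). With the replicate block neither passed (0.05802 and 0.05403). Nor did they after quantile scaling (0.0665 and 0.0687), without the variance trend (0.11 and 0.0951) or without the filter on low values (0.0936 and 0.0721). The 42 h call also ended when any 1 library of 34 h or 42 h was left out (0.114 to 0.216), and that at 72 h when 72 h replicate 2 or any 1 library of 34 h or 42 h was left out (0.0543 to 0.243). ITGA6 took 47.3% and 47.7% of the alpha chain TPM at 34 h against 39.2% and 33.3% at 72 h.

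ITGA5 (chromosome 12, 54395261 to 54419460, minus strand, GRCh38) had 17.2 and 12.8 TPM (34 h), 24.2 and 22.7 TPM (42 h), 24.8 and 24.5 TPM (50 h), then 33.6 and 33.8 TPM (72 h). All later values exceed those of 34 h, and both 72 h values exceed all others. It rose by 0.70 ± 0.15 at 50 h (limma adjusted p 0.0296) and by 1.13 ± 0.15 (SE; limma adjusted p 0.001198; 0.93 and 1.33 within replicates 1 and 2) at 72 h. The 72 h call held in all alternatives, and that at 50 h was lost without any 1 library other than 34 h replicate 1 (0.05005 to 0.1497) and with the compared time points alone (0.09996). FN1, its fibronectin ligand, had 9.06 and 14.4 TPM (34 h), 15.1 and 13.5 TPM (42 h), 14.7 and 15.2 TPM (50 h), then 23.3 and 21.97 TPM (72 h) and was higher in both 72 h libraries than in any other. FN1 rose at 72 h by 0.93 ± 0.20 (SE; limma adjusted p 0.0114; 1.27 and 0.58 within replicates 1 and 2), with an adjusted p of 0.0675 without 72 h replicate 1.

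ITGAV, the alpha chain that pairs with several beta chains to bind RGD-containing ligands, had 25.6 and 18.2 TPM (34 h), 11.95 and 23.1 TPM (42 h), 11.6 and 13.96 TPM (50 h), then 13.02 and 8.799 TPM (72 h), and the replicates at 42 h lie further apart than the means of any 2 neighbouring times. From 34 h to the last time it moved by -0.95 ± 0.31 (limma adjusted p 0.0593), which did not pass, but it passed with the compared time points alone (0.0294), after TMM (0.0459) or quantile scaling (0.0442), with genes kept from a mean of 5 TPM upward (0.04505) and without 42 h replicate 1 or 2 (0.0265 and 0.0273). ITGA7, a laminin receptor chain, had 66.98 and 70.3 TPM (34 h), 72.6 and 64.2 TPM (42 h), 63.5 and 56.8 TPM (50 h), then 68.4 and 95.4 TPM (72 h) (change at 72 h 0.23 ± 0.16, limma adjusted p 0.324).

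ITGAE, the alpha E chain known from lymphocytes of epithelia, had 37.8 and 40.02 TPM (34 h), 41.3 and 43.4 TPM (42 h), 47.9 and 43.2 TPM (50 h), then 56.1 and 48.4 TPM (72 h). Its rise at 72 h was 0.41 ± 0.11 (limma adjusted p 0.0343), lost after TMM scaling (0.0646) and when any 1 library of 34, 42 or 72 h was left out (0.0515 to 0.198). ITGB7, its known beta partner, had 0.667 to 2.45 TPM. ITGA2B, the platelet alpha chain, went from 2.01 and 3.35 TPM at 34 h to 9.56 and 5.16 TPM at 72 h, a rise of 1.16 ± 0.35 (SE; limma adjusted p 0.0443; 1.81 and 0.50 within replicates 1 and 2). The call was lost without either 34 h or 50 h library or 72 h replicate 1 (0.0551 to 0.2403) and after TMM scaling (0.05297). ITGB3, its only known beta partner, had at most 0.184 TPM, and the platelet and blood markers PTPRC, GP9 and PF4 had at most 0.762 TPM, while 2 others of the 7 endothelium and blood markers moved in opposite directions: TEK rose from 16.8 and 16.3 TPM at 34 h to 32.7 and 32.3 TPM at 72 h (0.93 ± 0.14, limma adjusted p 0.00228), and KDR fell from 9.98 and 10.1 TPM to 4.92 and 4.85 TPM (-0.91 ± 0.16, 0.00536). Their part in the rise of ITGA2B was not tested.

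The common beta chain ITGB1 had 87.6 and 104 TPM (34 h), 87.4 and 94.3 TPM (42 h), 90.2 and 100.1 TPM (50 h), then 114 and 102 TPM (72 h), with a change at 72 h of 0.17 ± 0.12 (limma adjusted p 0.324), and took 67.8% and 73.3% of the beta chain TPM at 34 h against 72.3% and 71.1% at 72 h. ITGB5, a vitronectin receptor chain that pairs with alpha V, had 36.1 and 33.2 TPM (34 h), 41.2 and 43.5 TPM (42 h), 55.8 and 45.4 TPM (50 h), then 38.6 and 36.5 TPM (72 h). It rose by 0.53 ± 0.13 at 50 h (limma adjusted p 0.0466), a call lost under 13 of 18 alternatives, with adjusted p-values between 0.0332 and 0.234, among them TMM scaling (0.0582) and leaving out any 1 library but 50 h replicate 2 (0.0737 to 0.234). Its value at 72 h was 0.11 ± 0.13 from 34 h (limma adjusted p 0.549). ITGB4, the hemidesmosome chain that pairs with alpha 6, had 0.617 to 3.21 TPM, and VTN stayed under 1 TPM.

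TNC, a matrix glycoprotein of the developing nervous system that modulates adhesion, had 5.17 and 5.63 TPM (34 h), 6.47 and 4.96 TPM (42 h), 8.03 and 6.31 TPM (50 h), then 3.27 and 2.16 TPM (72 h) and was lowest in both 72 h libraries. It changed by -0.80 ± 0.22 against 34 h and -1.15 ± 0.22 against 50 h (limma adjusted p 0.0327 and 0.0188). The first call was lost without either 34 h library or 72 h replicate 2 and the second without either 50 h library or 72 h replicate 2. Both were also lost without the filter on low values (limma adjusted p 0.0763 and 0.0593).

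**Figure D4:**
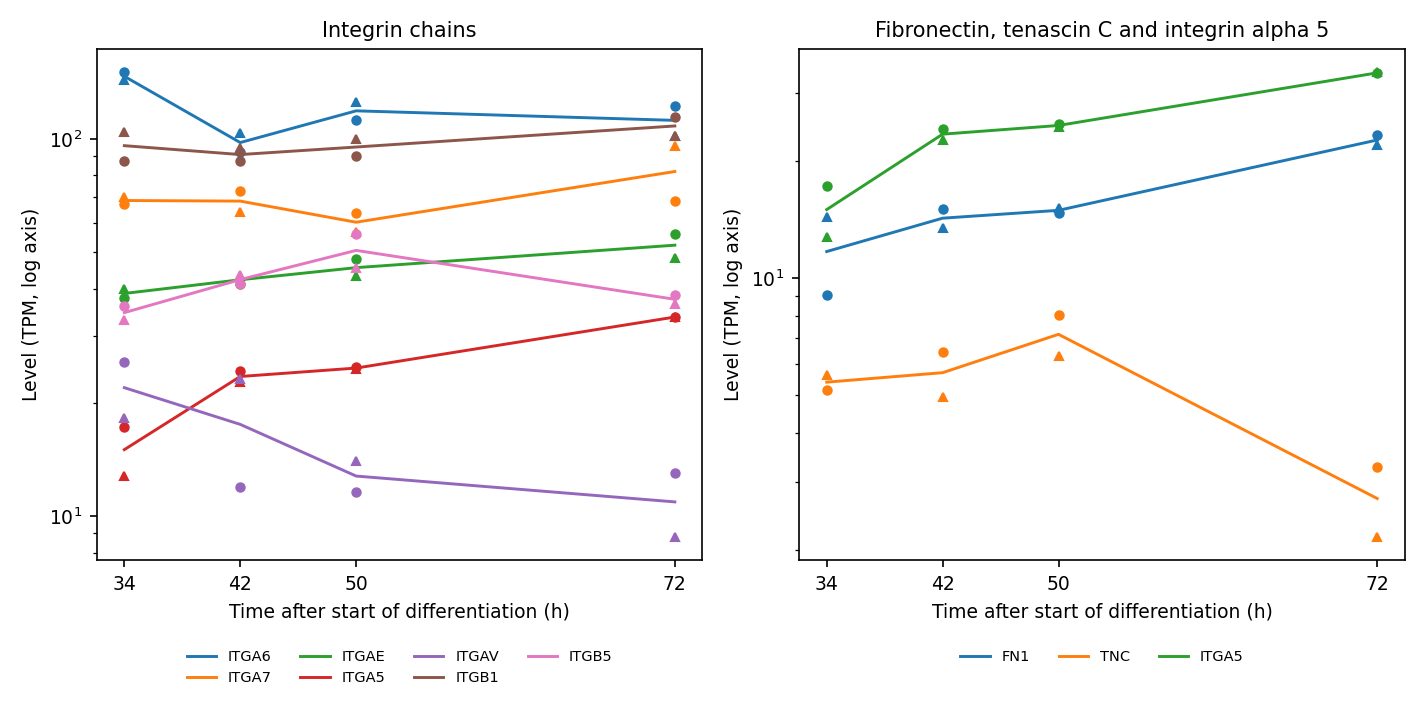
Levels in TPM (log axis) against hours of differentiation for 7 integrin chains (left) and for FN1, TNC and ITGA5 (right); circles are replicate 1, triangles replicate 2 and lines join the means of 2 libraries. The mean of ITGA5 climbs to 33.7 TPM, and the mean of ITGA6 drops from 146 to 97.7 TPM in the first step.

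The 28 genes not tested were 15 collagens, 2 laminins, 10 integrins and VTN. Of them 24 stayed under 1 TPM in all libraries, and COL12A1, COL6A3, ITGA9 and LAMA3 reached 1 TPM in 1 library each. The leukocyte integrin chains ITGAD, ITGAL, ITGAM and ITGAX were among the 24. Of the 61 tested genes 20 were called in no comparison and had a mean under 20 TPM at every time. COL11A2 had 6 rows in the table, summed here, and its level of 0.758 to 1.92 TPM may be split among them.

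Promoter windows of 250 bases before the RefSeq start were found for 64 of the 89 genes, in 83 windows. The letters CTTTGA, a core of sites for the TCF/LEF factors of WNT signalling, were searched on both strands and stood in 14 of the 83 windows (16.9%) and in 11.2% of all 35116 windows; CTTTGAT, which contains it, stood in 0 of the 83 and in 2.26% of all. Genes raised at 72 h had 17 windows, 5 of them (29.4%) with CTTTGA and 8 (47.1%) with CCAAT; genes lowered had 12, with 1 (8.33%) and 2 (16.7%). In the 31 windows of genes tested and not called CTTTGA and CCAAT stood in 16.1% each, and CCAAT stood in 32.0% of all windows. GGGCGG stood in 58.8% of the windows of raised genes, in 75.0% of those of lowered genes, in 58.1% of those of tested genes not called, in 55.4% of the 83 and in 42.6% of all 35116. A gene can have several windows and the collagen IV pairs share sites, so these shares are descriptions of letters in these windows only.

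Genes that process, cut or connect the matrix, taken from lists that hold none of the 89 genes, changed in both directions at 72 h against 34 h, and their counts stand beside 12.7% raised and 11.3% lowered of all tested genes. Of 30 tested collagen processing genes 6 were raised and 6 lowered, with a median change of 0.11. P3H2, a prolyl hydroxylase of basement membrane collagens, had 38.5 and 51.5 TPM (34 h) against 6.86 and 6.06 TPM (72 h) (-2.61 ± 0.25, limma adjusted p 0.000266), and BMP1, which cleaves procollagens, had 5.87 and 6.69 TPM (34 h) against 20.1 and 18.8 TPM (72 h) (1.49 ± 0.14, 0.000235). Of 24 matrix proteases and inhibitors 2 were raised and 5 lowered, a share near that of all genes, with a median of -0.13. MMP24, a membrane-bound protease, went from 33.5 and 28.2 TPM to 1.77 and 2.38 TPM and MMP2, a gelatinase that cuts collagen IV, from 14.1 and 16.6 TPM to 60.4 and 63.1 TPM (-3.37 ± 0.16 and 1.95 ± 0.15, limma adjusted p 7.58e-06 and 7.65e-05).

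Of 36 cytoplasmic adaptors of integrin adhesions 6 were raised and 10 lowered, with a median of -0.21. TNS3, a tensin that binds integrin beta tails, had 27.8 and 19.98 TPM (34 h) against 87.2 and 83.9 TPM (72 h) (1.82 ± 0.17, limma adjusted p 0.000222), and TES, an adhesion protein, had 14.4 and 15.4 TPM (34 h) against 2.59 and 4.59 TPM (72 h) (-1.83 ± 0.23, 0.000918). Of 24 other matrix receptors 5 were raised and 6 lowered, with a median of 0.11. The glypican GPC4 had 169.7 and 165 TPM (34 h) against 30.7 and 33.2 TPM (72 h) (-2.35 ± 0.10, limma adjusted p 5.94e-06). Of 43 other matrix genes 14 were raised and 8 lowered, with a median of 0.42, against 0.06 over all tested genes. SMOC1, a basement membrane glycoprotein, had 3.11 and 3.24 TPM (34 h) against 99.1 and 73.9 TPM (72 h) (4.37 ± 0.18, limma adjusted p 4.83e-06), and HAPLN3, a hyaluronan link protein, had 77.4 and 73.1 TPM (34 h) against 8.13 and 9.098 TPM (72 h) (-2.99 ± 0.12, 4.61e-06).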

How the data were processed

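Poly(A) RNA of ESI017 cells was sequenced in 8 libraries, 2 at each of 34, 42, 50 and 72 h, per the labels. The authors deposited 1 table of TPM with a row per Ensembl gene, and each column sums to 1000000. Salmon 1.9.0 and GRCh38 are named in the submitters' processing notes; the annotation, strand setting and filters are not given in the sources used here. TPM keeps no depth, so no counting interval or floor was computed. TPM of rows with the same symbol were summed, genes kept that reached 1 TPM in 2 or more libraries, and log2(TPM + 1) fitted with limma 3.58.1 in R 4.3.3, with 1 mean per time, all 8 libraries and a variance trend, after tests on simulated data. Adjusted p-values are two-sided Benjamini-Hochberg values over 14908 genes. Nothing in the labels says that the 2 libraries of a time came from separate cultures beyond the words independent biological replicate, so p-values measure the spread between these libraries.

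The genes and lists were chosen with earlier results of these data known. Named were members called in any of 5 comparisons or with a mean of at least 20 TPM at a time, 41 in all, of which 1 is not reported here, and at most 3 genes a related list; partner chains of these are given by level, whatever their call. The replicate number is a batch in the labels, so it pairs the libraries; replicate differences correlated at 0.0949 to 0.195 among 34, 42 and 50 h and at -0.104 to -0.0445 with 72 h. The 18 alternatives were another pseudocount (0.1), no filter, a mean of at least 5 TPM, TMM and quantile scaling, mitochondrial genes left out, no variance trend, the replicate block, the compared times alone, Ensembl rows apart and each library left out. Positions are from GENCODE 29 on GRCh38, matched by Ensembl identifier for all 89 genes; promoter windows are from RefSeq on GRCh38.p14.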

Additional observations from a re-analysis of the deposited data

How the results depend on the processing

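Of the 45 calls of single genes in the 5 comparisons, 18 held in every alternative that gave a value and 27 were lost in at least 1; 0 changed direction. The count of 2 called genes at 42 h was 1 without the filter on low values, after quantile normalization, without the variance trend and with Ensembl rows apart, and between 0 and 2 with 1 library left out. The 8 at 50 h were 10 among genes with a mean of at least 5 TPM, 4 without the filter, 5 after TMM or quantile scaling, 3 with the compared times alone, and between 2 and 6 with 1 library left out. The 26 at 72 h against 34 h were between 16 and 24 with 1 library left out, and 22 to 25 in the other alternatives. The 9 between 50 h and 72 h were 5 without the filter and between 3 and 7 with 1 library left out. Between 42 h and 50 h no alternative called any. The cause of these differences was not tested, and leaving out a library also leaves fewer residual degrees of freedom. Of the 45 calls, 14 were lost without the filter on low values, 8 after quantile scaling, 8 without the variance trend and 6 after TMM scaling. With the compared times alone 10 of 44 were lost. The alternatives given with single genes above do not name all of these losses.

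With the replicate block the counts were 2, 7, 24, 0 and 8 in the same order of comparisons as in the report (42, 50 and 72 h set against 34 h, then the steps from 42 to 50 h and from 50 to 72 h); it ended the 6 calls given with it above, added COL4A6 at 42 h and COL7A1 at 72 h, and changed no other call of the 89 genes. Of the 12 named but uncalled genes (the other uncalled genes were not followed), those whose change at 72 h turned sign were COL18A1 (0.032 without 34 h replicate 1), COL1A2 (0.13 without 34 h replicate 1 and 0.11 without 72 h replicate 1), COL6A1 (0.11 without 34 h replicate 2 and 0.20 without 72 h replicate 1) and ITGA7 (-0.0045 without 72 h replicate 2), within ranges over the left-out libraries of -0.26 to 0.032, -0.15 to 0.13, -0.21 to 0.20 and -0.0045 to 0.47. TMM scaling moved the median of all genes by at most 0.07. The unknown depth limits what genes under 1 TPM can show.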
